A study of Mus musculus with 12 samples.

Results

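AMP-activated protein kinase (AMPK), its upstream kinases and a pair of its downstream regulators were followed at the RNA level in the mouse colon. The set held 10 genes chosen by symbol from the 54532 genes of each count file: the subunit genes Prkaa1, Prkaa2, Prkab1, Prkab2, Prkag1 and Prkag2, the upstream kinase genes Stk11 and Camkk2, and Foxo3 and Ppargc1a. All 10 were among the 17658 genes with enough counts to be tested. The series held total RNA libraries of colonic tissue from male C57BL/6 mice in 4 groups of 3 libraries. Colitis was induced with dextran sulfate sodium (DSS), which injures the epithelium of the large bowel. Ursolic acid (UA), a plant triterpenoid, was begun before or during the DSS course. The Con group had no DSS; its libraries are labelled untreated, whereas the methods give a vehicle by gavage. DSS mice drank 3% (w/v) DSS for 5 days and received the vehicle. UA+DSS mice had the same DSS with UA at 200 mg/kg daily by gavage from 1 day before DSS, and DSS+UA mice had the same dose of UA from 3 days after DSS began. The methods and the discussion of the study differ on how long each UA course ran. The methods give RNA from 3 colonic tissues of each group, but the labels do not say that the 3 libraries came from separate mice. The p-values therefore measure only the spread between these libraries.

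AMPK is a heterotrimer of a catalytic α subunit, a β subunit that holds the complex together and binds glycogen, and a γ subunit that senses AMP and ADP against ATP. The kinase is switched on when the activation loop of α is phosphorylated, by LKB1 (encoded by Stk11) when energy is low or by CaMKK2 (Camkk2) when calcium rises. FoxO3 is a transcription factor of stress resistance and autophagy that AMPK phosphorylates, and PGC-1α (Ppargc1a) is the coactivator that drives mitochondrial biogenesis. RNA levels report neither the phosphorylation of AMPK nor its activity. In the colon these genes are used by absorptive epithelium and by muscle, stroma and immune cells, and in bulk tissue fewer cells of a type and less RNA per cell cannot be told apart.

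Promoters of 4 genes are shown because the comparisons turn on them: Ppargc1a and Camkk2 moved in opposite directions with DSS, Foxo3 differed between the UA groups, and Stk11 was not called in any comparison. Each run is 300 bases of RefSeq sequence (build GRCm38.p6), 5′ to 3′ on the strand of the gene, with 250 bases before the transcription start and 50 after it. Capitals mark matches on either strand to 5 short motifs, and bases are counted from 1 at the 5′ end of the run. For CREB factors, which act in cAMP signalling, only a part of the full motif was searched, TGACG. The motif of FoxO factors was searched as GTAAACA. For estrogen-related receptors (ERR), which partner with PGC-1, AAGGTCA was searched, also a part of a full nuclear receptor site. The E-box, bound by many basic helix-loop-helix factors, was searched as CACGTG, and the CCAAT box, common near transcription starts, as CCAAT. None of these overlaps another in the 4 windows shown.
Ppargc1a, chr5:51567676-51567975, minus strand: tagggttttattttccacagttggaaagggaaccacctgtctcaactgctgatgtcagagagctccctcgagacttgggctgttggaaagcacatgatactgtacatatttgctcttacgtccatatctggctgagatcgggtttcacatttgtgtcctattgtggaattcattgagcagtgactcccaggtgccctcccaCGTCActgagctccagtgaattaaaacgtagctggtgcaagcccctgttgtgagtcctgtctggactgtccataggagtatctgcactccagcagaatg
Camkk2, chr5:122779361-122779660, minus strand: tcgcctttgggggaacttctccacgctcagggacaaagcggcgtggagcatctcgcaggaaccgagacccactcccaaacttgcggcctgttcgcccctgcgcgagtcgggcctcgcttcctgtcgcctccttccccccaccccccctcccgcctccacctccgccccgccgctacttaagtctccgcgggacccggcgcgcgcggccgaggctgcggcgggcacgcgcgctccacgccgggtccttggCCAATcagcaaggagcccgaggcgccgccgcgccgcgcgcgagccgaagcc
Foxo3, chr10:42276646-42276945, minus strand: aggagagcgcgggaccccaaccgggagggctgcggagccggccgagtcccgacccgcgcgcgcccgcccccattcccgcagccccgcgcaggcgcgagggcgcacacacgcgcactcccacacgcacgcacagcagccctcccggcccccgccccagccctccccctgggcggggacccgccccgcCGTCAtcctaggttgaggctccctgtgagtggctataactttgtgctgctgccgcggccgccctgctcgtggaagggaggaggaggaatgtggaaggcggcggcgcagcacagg
Stk11, chr10:80115545-80115844, plus strand: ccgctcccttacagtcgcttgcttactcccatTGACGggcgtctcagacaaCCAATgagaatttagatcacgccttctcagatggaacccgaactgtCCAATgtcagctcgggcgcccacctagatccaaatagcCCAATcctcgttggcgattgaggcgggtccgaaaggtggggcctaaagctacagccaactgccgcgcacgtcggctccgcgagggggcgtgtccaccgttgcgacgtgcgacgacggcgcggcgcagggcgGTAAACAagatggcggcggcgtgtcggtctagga

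The Ppargc1a window, at 48.7% GC, held the searched part of the CREB motif as CGTCA from base 202. Foxo3, at 75.0% GC, held the same letters from base 187, whereas Camkk2, at 73.3% GC, held only a CCAAT box from base 250. Stk11, at 61.3% GC, held TGACG from base 33, CCAAT from bases 52, 98 and 136, and GTAAACA from base 267. Over all 32851 promoters of the table, TGACG was in 20.8%, GTAAACA in 3.65%, AAGGTCA in 4.72%, CACGTG in 7.15% and CCAAT in 37.4%, and the median GC content was 52.7%. All 10 genes had an entry, and the searched part of the CREB motif was in windows of 5 of them (Prkaa2, Prkag1, Stk11, Foxo3 and Ppargc1a). That count is by gene over 12 windows, most of them above the median GC content, whereas 20.8% is by promoter. These are therefore not a like comparison, and an excess was not tested. The windows of Prkaa1 (82.0% GC), Prkab1 (65.3%) and Prkab2 (68.0%) and a window of Prkag2 (79.3%) held none of the 5 motifs. This says only that these letters are not in these stretches.

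Total counts ran from 15566216 to 19498383 per library (median 18569669), and the 10 genes had 94 to 3496 counts in each. The labels do not say which part of the colon each library came from. Position along the colon was therefore inferred from the RNA of Hox genes, which keep the position of a tissue. The score for it was defined after these data had been seen. A position score was taken as the mean log2 CPM (counts scaled to a library of equal size) of Hoxb13 and Hoxd10 to Hoxd13, used toward the rectum, minus that of Hoxb3 to Hoxb8, used toward the caecum. The score was 5.53, -3.03 and -1.83 in Con libraries 1, 2 and 3, 3.10, 1.35 and 0.37 in DSS, -4.88, -5.70 and -4.16 in UA+DSS, and 4.11, 4.47 and 5.06 in DSS+UA. Con 1 thus stood apart from the other Con libraries, and the scores of DSS, UA+DSS and DSS+UA did not overlap one another, so that position and treatment cannot be told apart between these groups. The DSS scores lay above those of Con 2 and Con 3 and below that of Con 1. They fell within the range of Con through Con 1 alone. Cell markers also moved with the groups. The summed CPM of 6 epithelial markers was 7484 to 11559 in Con, 4751 to 7222 in DSS, 9087 to 10464 in UA+DSS and 8779 to 13381 in DSS+UA. That of 6 markers of differentiated colonocytes was 2742 (Con 1) to 9831, 1383 to 5176, 9699 to 14112 and 2357 to 3752 in the same order. Macrophage markers, 5 genes, summed to 35.9 to 109.5, 299.5 to 548, 64.5 to 176 and 77.3 to 185 CPM, and 5 neutrophil markers to 1.89 to 2.53, 559 to 15856 (DSS 2), 15.0 to 60.9 and 128 to 644 CPM. Markers of fibroblasts (5 genes) summed to 887 to 1547, 2664 to 5940, 512 to 1325 and 751 to 1927 CPM, of smooth muscle (6) to 1094 to 3467, 661 to 1454, 1124 to 2436 and 436 to 866, and of skeletal muscle (6) to 19.3 to 20.1, 6.66 to 19.8, 13.6 to 29.2 and 14.7 to 17.3. Endothelial markers (4 genes) summed to 124 to 169, 223 to 338, 108 to 133 and 78.7 to 89.1 CPM. Adipocyte markers (4) summed to 0.155 to 19.0, 7.55 to 29.3, 15.7 to 44.9 and 2.48 to 9.09 CPM. Markers of enteric neurons, enteric glia, B and plasma cells and T cells were also measured and are not given here. All of these markers were detected in every group, and their part in the results below was not tested.

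Per kilobase of exon, the subunit genes differed widely in level. In Con the mean was 17.4 CPM per kb for Prkaa1 and 18.5 for Prkaa2, 41.8 for Prkab1 against 2.58 for Prkab2, and 14.9 for Prkag1 against 6.28 for Prkag2. Stk11 lay at 27.2 and Camkk2 at 1.05 CPM per kb, and Foxo3 and Ppargc1a at 13.8 and 5.06. Among the β genes, Prkab1 exceeded Prkab2 in every library, by 10.4 to 35.1 times. Stk11 exceeded Camkk2 in every library too, by 9.88 to 12.6 times in DSS and by 14.9 to 49.2 times in the other groups.

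**Figure D1:**
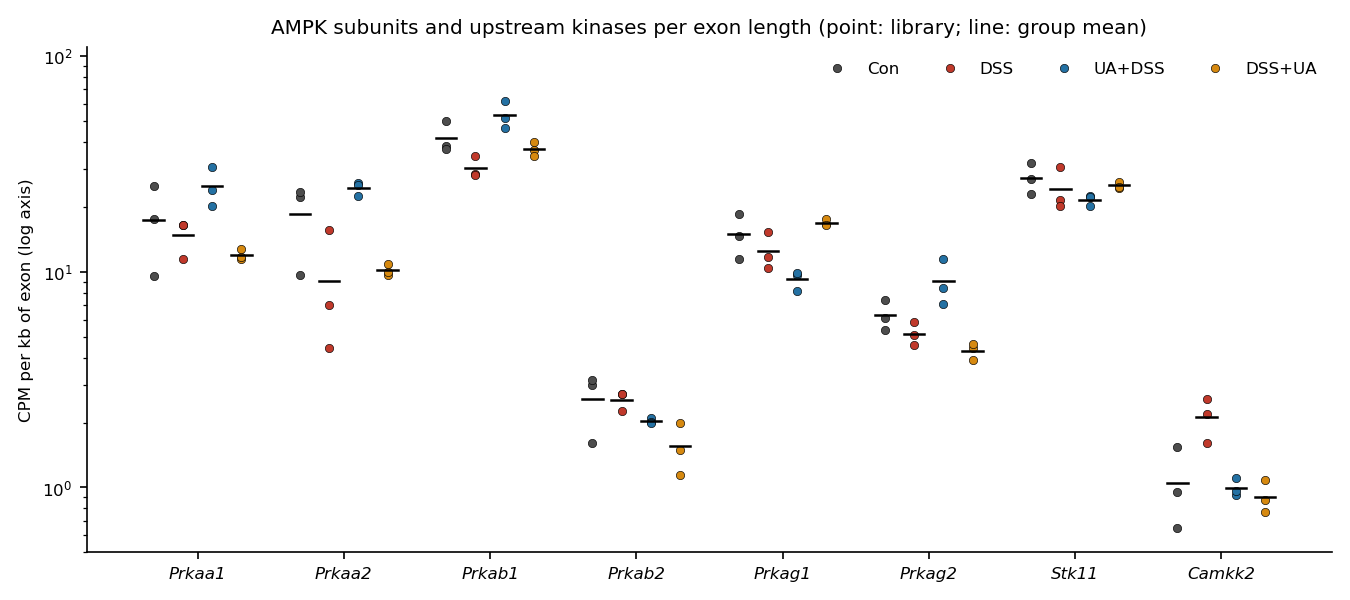
CPM per kilobase of exon of the AMPK subunit genes of the set, Stk11 and Camkk2 by group, on a log axis, with a point for each library. Prkab1 and Stk11 lay highest and Camkk2 and Prkab2 lowest in Con, at means of 41.8, 27.2, 1.05 and 2.58 CPM per kb.

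The α genes were used at like levels in most libraries. The ratio of Prkaa2 to Prkaa1 per kb was 0.893 to 1.33 in Con, 0.270 to 0.949 in DSS, 0.820 to 1.28 in UA+DSS and 0.842 to 0.858 in DSS+UA, and its lowest value was in DSS 2. For the γ genes, Prkag2 over Prkag1 was 0.290 to 0.529 in Con, 0.299 to 0.564 in DSS, 0.731 to 1.42 in UA+DSS and 0.221 to 0.280 in DSS+UA. UA+DSS thus lay above, and DSS+UA below, the other groups without overlap. A limit on this ratio is that 43.68% of the exon bases of Prkag1 and 12.27% of those of Prkag2 lie opposite antisense genes, and how strand was used in counting is not given in the sources used here.

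Prkaa1 (ENSMUSG00000050697, chromosome 15 at 5143861 to 5181899, GRCm38), which encodes α1, was at 44.6, 116 and 82.1 CPM in Con libraries 1, 2 and 3, 53.3, 76.8 and 76.4 in DSS, 93.7, 143 and 111 in UA+DSS, and 53.1, 54.3 and 59.4 in DSS+UA. Every UA+DSS library was above every DSS and DSS+UA library, and the Con libraries spanned most of the range. Prkaa2 (ENSMUSG00000028518, chromosome 4 at 105029874 to 105109890), which encodes α2, was at 77.1, 178 and 187 CPM in Con, 55.8, 35.5 and 124 in DSS, 205, 200.4 and 179 in UA+DSS, and 76.6, 79.3 and 87.2 in DSS+UA. Values of Con and DSS spread widely for this gene, and UA+DSS again lay above DSS and DSS+UA without overlap.

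Prkab1 (ENSMUSG00000029513, chromosome 5 at 116013586 to 116024508), the β1 gene, was at 117, 154 and 114 CPM in Con, 87.4, 86.5 and 106 in DSS, 141, 189 and 158 in UA+DSS, and 112, 123 and 106 in DSS+UA. All DSS libraries were below all Con libraries, and UA+DSS was above DSS and DSS+UA. Prkab2 (ENSMUSG00000038205, chromosome 3 at 97658193 to 97673812), the β2 gene, was low throughout, at 15.2, 8.21 and 16.0 CPM in Con, 13.8, 13.8 and 11.5 in DSS, 10.7, 10.2 and 10.2 in UA+DSS, and 10.2, 5.81 and 7.60 in DSS+UA. Its lowest 3 values were in DSS+UA 2, DSS+UA 3 and Con 2.

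Prkag1 (ENSMUSG00000067713, chromosome 15 at 98812797 to 98831521), the γ1 gene, was at 40.3, 31.8 and 24.9 CPM in Con, 25.4, 33.3 and 22.6 in DSS, 21.0, 17.6 and 21.5 in UA+DSS, and 36.0, 38.3 and 35.9 in DSS+UA. It was lowest in UA+DSS, below every other library. Prkag2 (ENSMUSG00000028944, chromosome 5 at 24862744 to 25100642) was at 34.9, 47.8 and 39.3 CPM in Con, 33.0, 29.7 and 37.9 in DSS, 45.8, 74.7 and 54.6 in UA+DSS, and 28.7, 25.2 and 29.9 in DSS+UA. DSS+UA lay below all Con and UA+DSS libraries, and UA+DSS lay above DSS and DSS+UA and overlapped Con. The antisense gene B130046B21Rik, which lies opposite Prkag1, held at most 17 counts in any library, and Prkag2os2 and Prkag2os1, opposite Prkag2, held at most 25 and 8.

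Stk11 (ENSMUSG00000003068, chromosome 10 at 80115803 to 80130682) was at 146, 123 and 105 CPM in Con, 98.6, 140.2 and 91.9 in DSS, 92.6, 103 and 102 in UA+DSS, and 119.5, 112 and 113 in DSS+UA. The groups of this gene overlapped except that every UA+DSS library was below every Con and DSS+UA library. Camkk2 (ENSMUSG00000029471, chromosome 5 at 122731170 to 122779409) was at 7.09, 10.4 and 16.8 CPM in Con, 23.8, 28.1 and 17.4 in DSS, 12.1, 10.1 and 10.5 in UA+DSS, and 11.7, 8.41 and 9.54 in DSS+UA. DSS lay above the other 3 groups without overlap, although the highest Con library, at 16.8, came close to the lowest DSS library.

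Foxo3 (ENSMUSG00000048756, chromosome 10 at 42181841 to 42276755) was at 69.9, 130.5 and 114 CPM in Con, 57.6, 73.7 and 82.5 in DSS, 119, 148 and 115 in UA+DSS, and 48.6, 73.7 and 65.3 in DSS+UA. Con 1, the Con library with the high position score, lay among the DSS values. Ppargc1a (ENSMUSG00000029167, chromosome 5 at 51454250 to 51567726) was at 30.8, 37.6 and 31.7 CPM in Con, 10.8, 6.41 and 8.29 in DSS, 19.8, 71.8 and 37.3 in UA+DSS, and 14.1, 18.9 and 20.2 in DSS+UA. DSS was below all other libraries, DSS+UA was between DSS and Con without overlap, and UA+DSS spread from the level of DSS+UA to above Con.

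**Figure D2:**
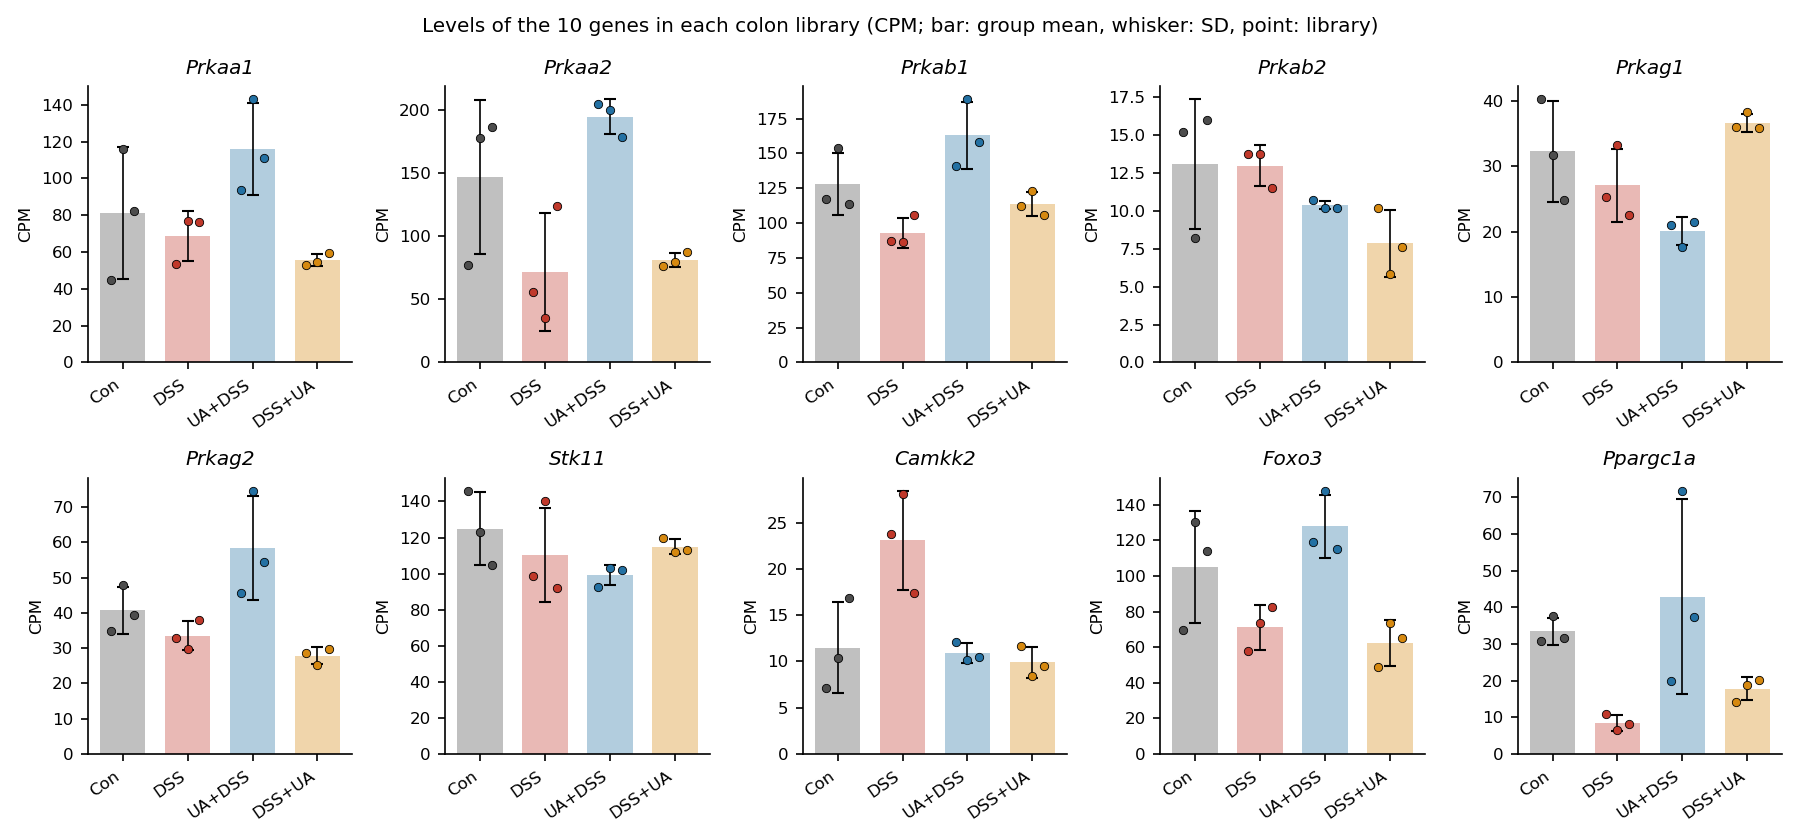
CPM of each of the 10 genes in the 12 libraries, with a panel for each gene, a point for each library and the mean ± SD of each group (n = 3). Ppargc1a was lowest in DSS (6.41 to 10.8 CPM) and Camkk2 highest in DSS (17.4 to 28.1 CPM).

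DSS against Con asked what colitis changed. Ppargc1a fell 3.92-fold, from 33.4 ± 3.69 to 8.51 ± 2.21 CPM (SD, n = 3), and Camkk2 rose 2.02-fold, from 11.5 ± 4.96 to 23.1 ± 5.35 CPM. The other 8 genes were not called. By the quasi-likelihood test of edgeR, with p adjusted by the Benjamini-Hochberg method across the whole table, Ppargc1a changed by -1.97 on the log2 scale (SE 0.39, adjusted p = 0.00608) and Camkk2 by 1.01 (SE 0.30, adjusted p = 0.0295). Of all genes tested, 13.9% rose and 12.6% fell, beside 1 riser and 1 faller of the 10. Prkab1 was at -0.46 (SE 0.17, adjusted p = 0.0647), Prkaa2 at -1.04 (SE 0.42, adjusted p = 0.0884) and Foxo3 at -0.56 (SE 0.24, adjusted p = 0.111). Stk11, Prkaa1, Prkab2, Prkag1 and Prkag2 lay between -0.28 and -0.01, with adjusted p of 0.3 to 0.976. Groups did not overlap for 3 genes (Ppargc1a, Camkk2 and Prkab1), where 41.3% of all genes tested showed no overlap. The median log2 fold change was -0.27 for the 10 genes and -0.034 for all genes.

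The Ppargc1a call held in 18 of 18 alternatives, with adjusted p of 3.09e-05 to 0.0239. That of Camkk2 was lost without Con 1 (adjusted p = 0.0713), Con 2 (0.0903), DSS 1 (0.0699) or DSS 2 (0.0859). Without Con 1, Prkaa2 (-1.35, adjusted p = 0.0384) and Foxo3 (-0.78, adjusted p = 0.0291) were called, and without DSS 3 Prkaa2 was (-1.69, adjusted p = 0.00745). The number of called genes was 3 without Con 1 or DSS 3 and 1 without Con 2, DSS 1 or DSS 2. With the position score as a covariate, Ppargc1a was at -1.93 (SE 0.42, adjusted p = 0.00965) and Camkk2 at 1.19 (SE 0.29, adjusted p = 0.0146), which made 2 of the 10 called, beside 30.5% of all genes.

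UA+DSS against DSS asked what UA begun before the DSS course changed. Ppargc1a was 5.04-fold higher, at 42.9 ± 26.5 against 8.51 ± 2.21 CPM (SD, n = 3), and Prkaa2 2.71-fold higher, at 195 ± 13.8 against 71.8 ± 46.5 CPM. Prkab1, Prkag2 and Foxo3 were also raised, and Camkk2 was 2.12-fold lower, at 10.9 ± 1.08 against 23.1 ± 5.35 CPM. Thus 5 of the 10 genes rose and 1 fell by edgeR's test, beside 8.21% and 10.5% of all genes tested. The log2 fold change was 2.33 for Ppargc1a (SE 0.39, adjusted p = 0.00972), 1.44 for Prkaa2 (SE 0.42, adjusted p = 0.0383) and 0.80 for Prkab1 (SE 0.17, adjusted p = 0.0144). It was 0.80 for Prkag2 (SE 0.19, adjusted p = 0.02), 0.84 for Foxo3 (SE 0.24, adjusted p = 0.0365) and -1.08 for Camkk2 (SE 0.30, adjusted p = 0.0312). Prkaa1 was at 0.75 (SE 0.30, adjusted p = 0.0969), Prkag1 at -0.43 (SE 0.20, adjusted p = 0.146), Prkab2 at -0.33 (SE 0.28, adjusted p = 0.439) and Stk11 at -0.15 (SE 0.18, adjusted p = 0.589). Groups did not overlap for 9 genes, all but Stk11, where 42.8% of all genes showed no overlap. The median log2 fold change of the 10 was 0.77 and that of all genes -0.019.

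With the position score as a covariate, 0 of the 10 genes were called in UA+DSS against DSS by edgeR, beside 0.0170% of all genes, and 3 had an unadjusted p under 0.05. Ppargc1a was then at 2.18 (SE 0.61, adjusted p = 0.119), Camkk2 at -1.66 (SE 0.44, adjusted p = 0.111) and Prkab1 at 0.55 (SE 0.23, adjusted p = 0.209). Prkag2 was at 0.47 (SE 0.27, adjusted p = 0.325), Prkaa2 at 0.39 (SE 0.47, adjusted p = 0.651), Foxo3 at 0.14 (SE 0.25, adjusted p = 0.764) and Prkaa1 at -0.23. The estimates of Ppargc1a and Camkk2 stayed above 1 log2 unit in size, with larger errors. Those of Prkaa2, Foxo3 and Prkaa1 came closer to 0 or changed sign. The UA+DSS scores (-5.70 to -4.16) lay below every DSS score (0.37 to 3.10) and every Con score. Such estimates extend a slope, read within groups and mostly from Con, beyond the scores that the groups share. They therefore cannot sort the genes into those that follow position and those that follow treatment. DESeq2, run on the groups alone, called 6 of the 10.

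Single libraries mattered for the UA+DSS calls. The Ppargc1a call was kept with each library left out in turn, with log2 fold changes of 1.75 without UA+DSS 2 to 2.68 without UA+DSS 1. Prkab1 was lost without UA+DSS 2 (adjusted p = 0.0723), and Prkag2 without DSS 1 (0.0599), DSS 2 (0.0606) or UA+DSS 2 (0.0941). Camkk2 was lost without DSS 1 (0.0754), DSS 2 (0.0901), UA+DSS 1 (0.0617), UA+DSS 2 (0.117) or UA+DSS 3 (0.0883). Foxo3 was lost without DSS 1 (0.122), DSS 2 (0.0756), DSS+UA 3 (0.0548), UA+DSS 1 (0.0686), UA+DSS 2 (0.139) or UA+DSS 3 (0.0686). Prkaa2 was lost without DSS 1 (0.119), DSS 2 (0.0894), DSS+UA 1 (0.0528), DSS+UA 2 (0.0579), DSS+UA 3 (0.0559), UA+DSS 1 (0.086), UA+DSS 2 (0.114) or UA+DSS 3 (0.0775), and was at 2.09 without DSS 3. Prkaa1 was called without Con 1 (adjusted p = 0.0293). The number of called genes was 7 without Con 1, 4 without DSS+UA 3, 3 without UA+DSS 1 or UA+DSS 3, 2 without DSS 1 or DSS 2, and 1 without UA+DSS 2.

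DSS+UA against DSS asked what UA begun during the DSS course changed. Camkk2 was 2.33-fold lower, at 9.90 ± 1.69 against 23.1 ± 5.35 CPM (SD, n = 3), and the other 9 genes were not called. Its log2 fold change was -1.22 (SE 0.30, adjusted p = 0.0389, edgeR), and this 1 call of the 10 stands beside 7.54% of all genes in either direction. With scaling by library size only, 12.2% of the calls over all genes were rises, against 33.7% with TMM. At an unadjusted p under 0.05 there were 4 genes, and DESeq2 called 1. Ppargc1a was at 1.06 (SE 0.38, adjusted p = 0.097), Prkab2 at -0.72 (SE 0.28, adjusted p = 0.111) and Prkag1 at 0.44 (SE 0.20, adjusted p = 0.163). These 3 and Camkk2 made 4 genes without overlap between the groups, where 34.7% of all genes showed none. Prkaa1 was at -0.31, Prkaa2 at 0.17, Prkab1 at 0.29, Prkag2 at -0.26, Stk11 at 0.06 and Foxo3 at -0.19, and the median of the 10 was -0.06 against 0.020 over all genes. All comparisons with DSS share the same 3 DSS libraries, so their values are given side by side and not correlated.

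The Camkk2 call was close to the threshold in DSS+UA against DSS. It was lost without Con 2 (adjusted p = 0.0521), DSS 1 (0.0636), DSS 2 (0.11), DSS+UA 1 (0.0511), DSS+UA 2 (0.122), DSS+UA 3 (0.129), UA+DSS 1 (0.0591), UA+DSS 2 (0.0558) or UA+DSS 3 (0.0608). With the position covariate it was at -0.98 (SE 0.30, adjusted p = 0.092) and Ppargc1a at 1.12 (SE 0.45, adjusted p = 0.147). None of the 10 was then called by edgeR, beside 1.13% of all genes, and 4 had an unadjusted p under 0.05.

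The UA groups were next set against Con. In UA+DSS against Con, 0 of the 10 genes were called by edgeR, beside 0.00566% of all genes in either direction, with 2 genes at an unadjusted p under 0.05 and 0 called by DESeq2. Prkag1 was at -0.69 (adjusted p = 0.272) and Stk11 at -0.33, and these 2 did not overlap between the groups, where 20.6% of all genes did not. Ppargc1a was at 42.9 ± 26.5 CPM against 33.4 ± 3.69 in Con. In DSS+UA against Con, 0 of the 10 were called by edgeR, beside 9.13% of all genes higher and 8.95% lower, with 4 genes at an unadjusted p under 0.05 and 1 (Foxo3) called by DESeq2. Foxo3 was at -0.75 (adjusted p = 0.0547), Ppargc1a at -0.91 (adjusted p = 0.108), Prkab2 at -0.74 (adjusted p = 0.0826) and Prkag2 at -0.54 (adjusted p = 0.0727). Ppargc1a and Prkag2 were the 2 genes without overlap, where 38.9% of all genes showed none. The call changed with 1 library for several genes. Without Con 1, Foxo3 (-0.97, adjusted p = 0.0155) and Prkaa1 (-0.83, adjusted p = 0.0324) were called, without Con 2 Prkab2 (-0.98, adjusted p = 0.035), and without UA+DSS 2 Ppargc1a (-0.90, adjusted p = 0.0497). With the position covariate 0 of the 10 were called in either comparison, beside 0% of all genes in UA+DSS against Con and 12.3% in DSS+UA against Con, and 0 and 1 had an unadjusted p under 0.05.

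UA+DSS and DSS+UA were then compared with each other. Prkaa1, Prkag2, Foxo3 and Ppargc1a were higher and Prkag1 lower in UA+DSS, so that 4 genes rose and 1 fell, beside 7.54% and 9.23% of all genes. Prkaa1 was at 116 ± 24.9 against 55.6 ± 3.33 CPM (SD, n = 3; log2 fold change 1.06, SE 0.30, adjusted p = 0.0341, edgeR). Prkag2 was at 58.4 ± 14.8 against 27.9 ± 2.41 CPM (1.06, SE 0.20, adjusted p = 0.00865) and Prkag1 at 20.1 ± 2.13 against 36.7 ± 1.36 CPM (-0.87, SE 0.20, adjusted p = 0.0172). The difference was 1.03 for Foxo3 (SE 0.25, adjusted p = 0.0198) and 1.27 for Ppargc1a (SE 0.38, adjusted p = 0.0427). Prkaa2 was at 1.26 (adjusted p = 0.0609) and Prkab1 at 0.52 (adjusted p = 0.057), and DESeq2 called both. Groups did not overlap for 7 genes, where 45.3% of all genes showed no overlap, and Ppargc1a was not among them. With the position covariate 0 of the 10 were called by edgeR, beside 0% of all genes, and 0 had an unadjusted p under 0.05. Prkag2 was then at 0.59 (SE 0.34, adjusted p = 0.485), Ppargc1a at 1.06 (SE 0.76, adjusted p = 0.577), Prkaa1 at -0.39 (SE 0.31, adjusted p = 0.626) and Foxo3 at -0.01 (SE 0.32, adjusted p = 0.997).

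Of these calls, that of Prkag2 was kept with each library left out in turn. Prkaa1 was lost without DSS+UA 1 (adjusted p = 0.0932), DSS+UA 2 (0.0896), DSS+UA 3 (0.0918), UA+DSS 1 (0.0531), UA+DSS 2 (0.132) or UA+DSS 3 (0.071). Prkag1 was lost without DSS+UA 3 (0.0525) or UA+DSS 2 (0.0756), and Foxo3 without DSS+UA 1 (0.066), DSS+UA 3 (0.0653) or UA+DSS 2 (0.0832). Ppargc1a was lost without Con 2 (0.0573), Con 3 (0.0596), DSS 1 (0.0515), DSS 3 (0.0562), DSS+UA 1 (0.128), DSS+UA 2 (0.0936), DSS+UA 3 (0.0994), UA+DSS 2 (0.192, with a log2 fold change of 0.68) or UA+DSS 3 (0.0739). Prkaa2 was called without Con 1 (0.0348), DSS 2 (0.0276) or DSS 3 (0.0219), and Prkab1 without Con 1 (0.0499). The number of called genes was 7 without Con 1, 3 without DSS+UA 2 or UA+DSS 3, 2 without DSS+UA 1, and 1 without DSS+UA 3 or UA+DSS 2.

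**Figure D3:**
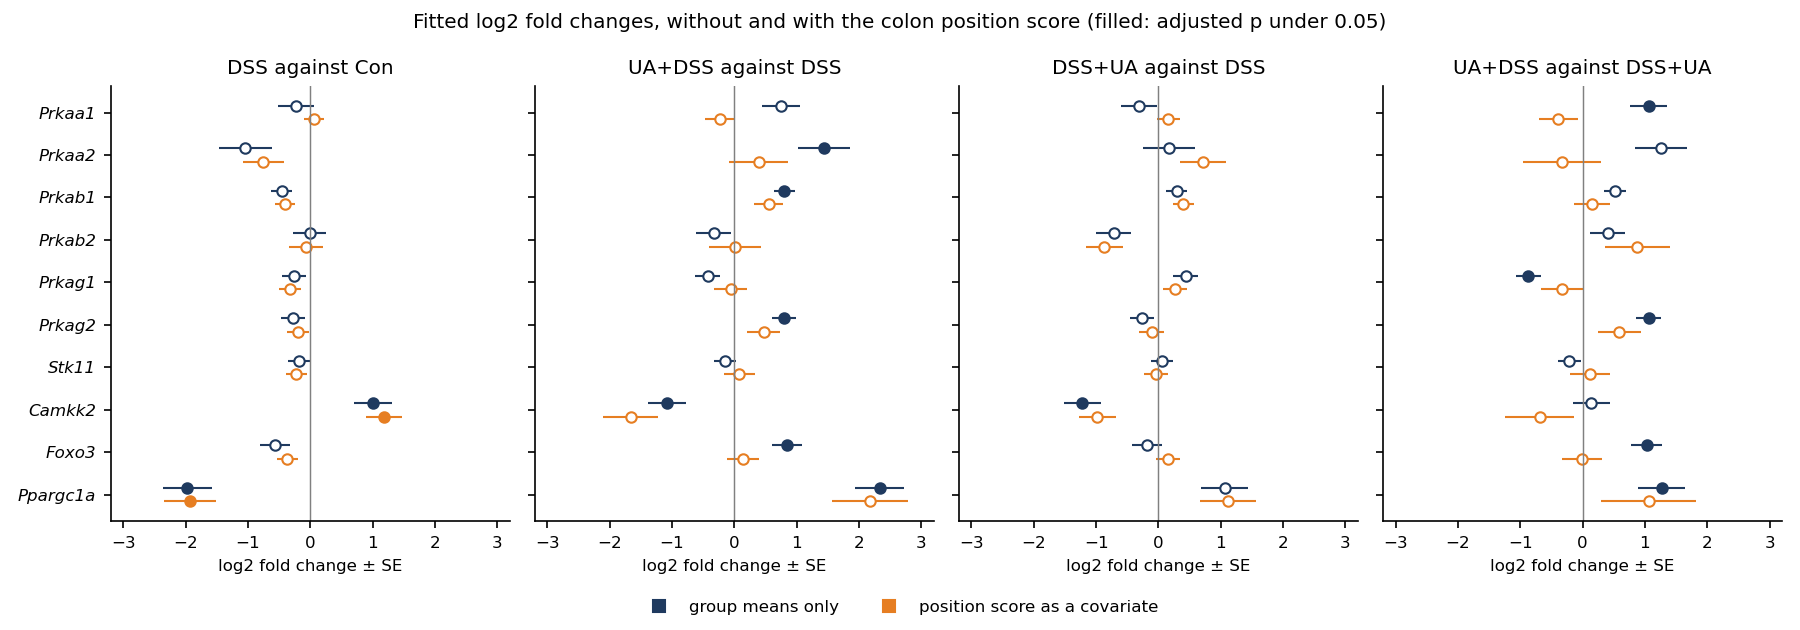
Log2 fold changes with their SE for the 10 genes in 4 comparisons, from the model of group means and from the model with the position score as a covariate; filled points have an adjusted p under 0.05. In UA+DSS against DSS, 6 genes are filled without the covariate and 0 with it, and in DSS against Con, Ppargc1a and Camkk2 are filled in both.

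Position was read within groups, as the change in level per unit of the score in a model that also held the group. Prkaa1 fell toward the rectum by 0.152 on the log2 scale per unit of score (SE 0.029, adjusted p = 0.0399, edgeR), or 2.86-fold over 10 units, and was the 1 gene of the 10 called, beside 1.27% of all genes. In Con it was at 44.6 CPM in the library with a score of 5.53 and at 116 and 82.1 CPM in those with -3.03 and -1.83. Prkaa2 was at -0.168 per unit (SE 0.059, adjusted p = 0.171) and Foxo3 at -0.108 (SE 0.030, adjusted p = 0.101), whereas Ppargc1a was at -0.022 (SE 0.069, adjusted p = 0.897). Prkag1, at 0.058, Prkab2, at 0.051, and Stk11, at 0.035, had slopes of the other sign and were not called. The spread of the score within groups came mostly from Con. Without Con 1 the slope of Prkaa1 was -0.210 (adjusted p = 1), and its call was also lost without Con 2 (0.195), Con 3 (0.0846), DSS 1 (0.0796), DSS 3 (0.0658), UA+DSS 2 (0.0506), UA+DSS 3 (0.0757), DSS+UA 2 (0.055) or DSS+UA 3 (0.0619). Prkaa2 was called without DSS 2 (adjusted p = 0.0302) and Foxo3 without DSS+UA 1 (0.0493).

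**Figure D4:**
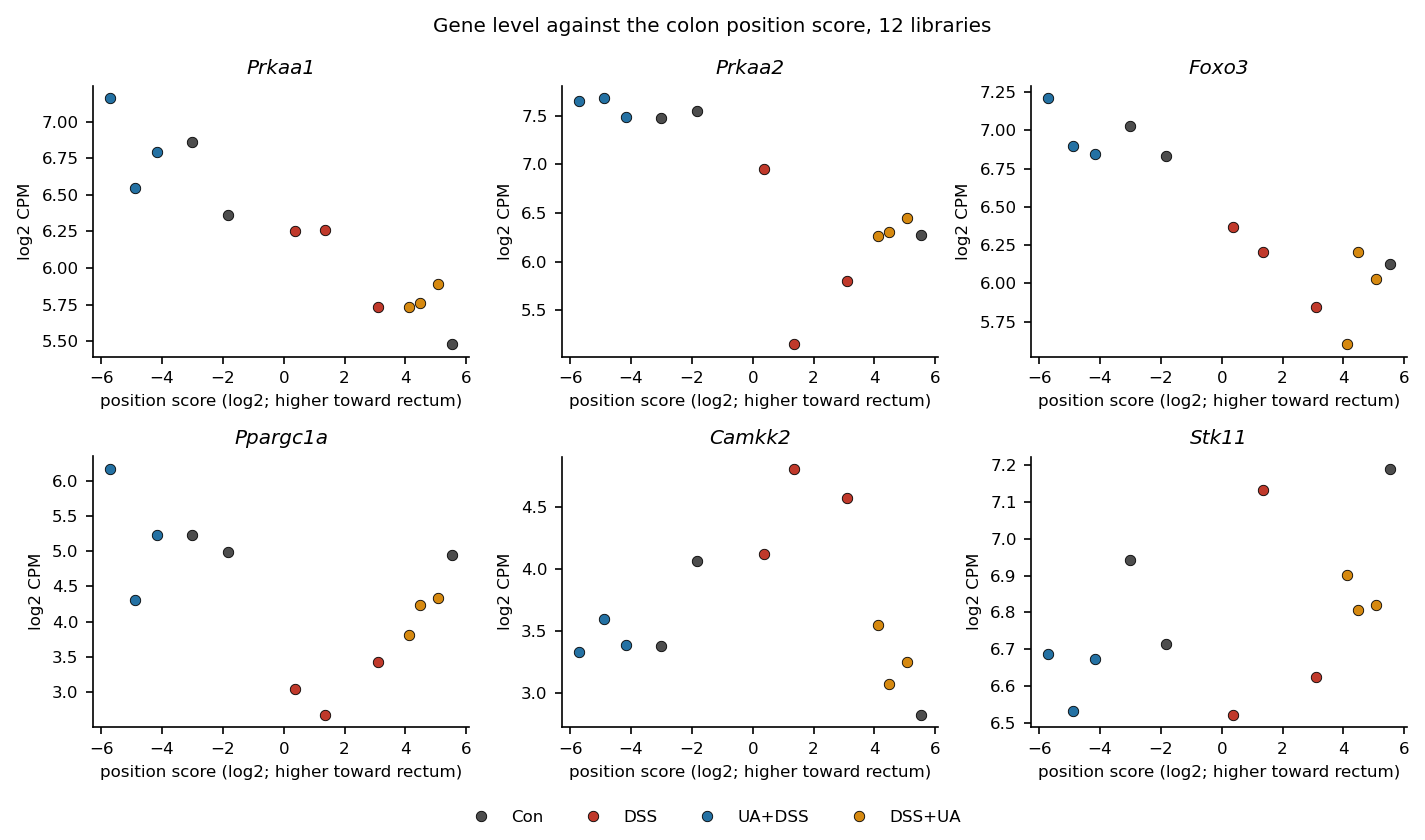
Log2 CPM of Prkaa1, Prkaa2, Foxo3, Ppargc1a, Camkk2 and Stk11 against the position score of each of the 12 libraries, coloured by group; higher scores lie toward the rectum. UA+DSS libraries have scores of -5.70 to -4.16 and DSS+UA libraries of 4.11 to 5.06, and the Con libraries run from -3.03 to 5.53.

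Close relatives of the 10 genes were read beside them. Camkk1, a paralog of Camkk2, was at 3.93, 4.49 and 4.97 CPM in Con and 11.5, 22.0 and 7.92 in DSS, a rise of 1.63 on the log2 scale (adjusted p = 0.012), and it was lower in UA+DSS than in DSS (-1.20, adjusted p = 0.0481). Ppargc1b, which encodes the related coactivator PGC-1β, was at 18.1, 29.5 and 24.0 CPM in Con, 10.2, 7.46 and 16.5 in DSS, 33.9, 26.9 and 28.8 in UA+DSS, and 14.1, 11.5 and 12.6 in DSS+UA. It fell in DSS against Con (-1.07, adjusted p = 0.0176) and was higher in UA+DSS than in DSS (1.39, adjusted p = 0.0127) and in DSS+UA (1.23, adjusted p = 0.0167). Unlike Ppargc1a, whose values in DSS+UA were all above those in DSS, Ppargc1b was at 0.16 in DSS+UA against DSS (adjusted p = 0.718), although the difference between these genes was not tested. Foxo4 fell with DSS (-0.71, adjusted p = 0.0191), was higher in UA+DSS than in DSS (0.95, adjusted p = 0.0124) and was lower in DSS+UA than in Con (-0.63, adjusted p = 0.0398). Foxo1 was not called in any of the 6 comparisons, and Foxo6, under 3 CPM in every library, was called only in UA+DSS against DSS (1.78, adjusted p = 0.0476). The skeletal muscle subunit gene Prkag3 did not pass the filter on low counts.

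Genes of the pathway were taken from lists written for this account with earlier results of these data known, so the counts below are a description. The lists also hold the 10 genes themselves, so that the counts and medians of the lists include them. Their counts stand beside shares of all genes of 13.9% raised and 12.6% lowered in DSS against Con, 8.21% and 10.5% in UA+DSS against DSS, 7.54% in either direction in DSS+UA against DSS, and 7.54% and 9.23% in UA+DSS against DSS+UA. Among 16 genes of the LKB1 complex and other upstream regulators, 2 rose (Camkk1 and Camkk2) and 1 fell in DSS against Con. The faller was Stradb (-0.69, adjusted p = 0.0287), which encodes a pseudokinase partner of LKB1, and it was higher in UA+DSS than in DSS (0.91, adjusted p = 0.016), the 1 riser there beside 2 fallers (Camkk1 and Camkk2). In DSS+UA against DSS, 1 rose and 3 fell: Lamtor1, of the lysosomal Ragulator complex, was at 0.59 (adjusted p = 0.0276), and the folliculin partners Fnip2 and Fnip1 were at -1.19 (adjusted p = 0.0304) and -0.82 (adjusted p = 0.0354), beside Camkk2. The list's median log2 fold change was 0.08, 0.03 and -0.25 in the 3 comparisons, against -0.034, -0.019 and 0.020 over all genes. The risers of DSS against Con were 1 without Con 2, DSS 1 or DSS 2, and the faller was lost without Con 2, Con 3, DSS 1 or DSS 3. That faller was also lost with library size only and with no filter. The riser of UA+DSS against DSS was lost without DSS 1, UA+DSS 2 or UA+DSS 3, and the 2 fallers were 0 without DSS 1, DSS 2, UA+DSS 2 or UA+DSS 3 and 1 without Con 2, Con 3, UA+DSS 1 or any single DSS+UA library. Those fallers were also 1 with no filter or with the replicate block. In DSS+UA against DSS the riser was lost without DSS 2, DSS+UA 2 or DSS+UA 3, and the 3 fallers were 0 without DSS 2, UA+DSS 3 or any single DSS+UA library, 1 without UA+DSS 1 and 5 without DSS 3 or by DESeq2. With no filter the riser there was lost, and with the replicate block 1 gene fell.

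Among 13 AMPK-related kinases, most of which LKB1 also activates, Sik1, a salt-inducible kinase, rose with DSS by 2.07 (adjusted p = 0.0039) and was lower than in DSS in both UA groups, at -1.89 (adjusted p = 0.0116) in UA+DSS and -1.98 (adjusted p = 0.0192) in DSS+UA. Nuak2 fell with DSS (-1.06, adjusted p = 0.0091). In all, 1 rose and 1 fell in DSS against Con, 1 rose and 3 fell in UA+DSS against DSS, and 0 rose and 3 fell in DSS+UA against DSS. Over all genes, 13.9% rose and 12.6% fell in the first of these, 8.21% and 10.5% in the second, and 7.54% passed in either direction in the third. The list's median was 0.19, -0.18 and -0.46. Without UA+DSS 2 none of the 13 fell in UA+DSS against DSS, and there 2 rose without Con 1 and none without Con 3 or any single DSS, UA+DSS or DSS+UA library. None rose there with library size only or with no filter either. In DSS+UA against DSS none fell without DSS+UA 2 or DSS+UA 3, and 1 fell without DSS 2, DSS 3, DSS+UA 1 or any single UA+DSS library. With no filter or the replicate block, 1 fell there too. Of 23 genes of AMPK substrates, set against the same shares of all genes, 2 rose and 2 fell in DSS against Con, 1 rose and 2 fell in UA+DSS against DSS, and 0 rose and 2 fell in DSS+UA against DSS, with medians of -0.12, 0.09 and -0.14. The largest change was that of Pfkfb3, a glycolytic regulator, from 11.1 ± 5.17 to 244 ± 331 CPM (SD, n = 3; log2 fold change 4.45, adjusted p = 0.00876), with the SD above the mean in DSS, and in UA+DSS against DSS it was at -3.85 (adjusted p = 0.0204). Acacb, the acetyl-CoA carboxylase gene of mitochondria, was 2.38 higher in UA+DSS than in DSS+UA (adjusted p = 0.00874), among 4 substrates that rose and 1 that fell there, beside 7.54% and 9.23% of all genes. In DSS against Con no substrate gene fell without Con 2 or DSS 1, 1 fell without Con 1, DSS 2 or UA+DSS 3, and 4 rose without DSS 3. None fell there with no filter, 1 with library size only and 3 with the replicate block. The riser in UA+DSS against DSS was lost without DSS 1, DSS 2, UA+DSS 2 or UA+DSS 3 and 2 rose without Con 1 or DSS 3, and the 2 fallers were 1 without DSS 2 or UA+DSS 1 and 0 without UA+DSS 2 or UA+DSS 3. With no filter or the replicate block, 1 substrate gene fell in that comparison. In DSS+UA against DSS the 2 fallers were 0 without DSS 2, DSS+UA 2, DSS+UA 3 or UA+DSS 3, 1 without UA+DSS 1 or UA+DSS 2, 4 without DSS 3 and 5 by DESeq2. None fell there with the replicate block. In UA+DSS against DSS+UA the 4 risers were 2 without Con 3, DSS 1, DSS+UA 1, UA+DSS 1 or UA+DSS 3 and 1 without DSS+UA 3 or UA+DSS 2, and the faller was lost without DSS+UA 1, DSS+UA 3, UA+DSS 2 or UA+DSS 3. Library size only also lost this faller.

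Genes of the FoxO family and those that FoxO factors are known to induce, 25 of them tested, moved in both directions with DSS, where 5 rose and 6 fell, beside 13.9% and 12.6% of all genes. Ddit4, an inhibitor of mTORC1, rose by 1.58 (adjusted p = 0.00484) and Bnip3, of mitophagy, by 1.47 (adjusted p = 0.00884). Insr, the insulin receptor, fell by 0.92 on the log2 scale (adjusted p = 0.00529), and Pck1, of gluconeogenesis, by 2.07 (adjusted p = 0.00565). In UA+DSS against DSS, 8 rose and 1 fell, beside 8.21% and 10.5% of all genes, with Insr at 0.90 (adjusted p = 0.0119), Pck1 at 2.04 (adjusted p = 0.0122) and Cat, the catalase gene, at 0.77 (adjusted p = 0.0163). In DSS+UA against DSS, 0 rose and 1 (Klf15) fell, beside 7.54% of all genes in either direction, and in UA+DSS against DSS+UA 11 rose and 0 fell, beside 7.54% and 9.23%. The median log2 fold change was -0.16, 0.57, -0.36 and 0.87 in these 4 comparisons. The 8 risers of UA+DSS against DSS were 4 without DSS 1, 5 without DSS 2, DSS+UA 3 or UA+DSS 3, and 0 without UA+DSS 2, and the 11 were 4 without DSS+UA 3 and 3 without UA+DSS 2. In DSS against Con the 5 risers were 3 without Con 1 or Con 2, and the 6 fallers were 3 without Con 2, Con 3, DSS 1, DSS 2 or DSS 3. The call of Klf15 was lost without any single DSS+UA library, and in that comparison 5 genes fell without DSS 3, 3 without DSS 1, 2 without Con 1, UA+DSS 1 or UA+DSS 2, 4 with library size only and 8 by DESeq2. The 1 faller of UA+DSS against DSS, Sod2, was lost without UA+DSS 2, and 4 fell there without DSS 3 and 3 by DESeq2.

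Of 23 genes of the PGC-1 coactivators and the factors they work with, 1 rose and 5 fell in DSS against Con, where 13.9% and 12.6% of all genes did. Beside Ppargc1a and Ppargc1b, the fallers were Sirt3, a mitochondrial deacetylase (-1.14, adjusted p = 0.00432), Esrrg, an estrogen-related receptor (-2.53, adjusted p = 0.0197), and Ppara. In UA+DSS against DSS 6 rose and 0 fell by edgeR, beside 8.21% and 10.5% of all genes, with Sirt3 at 1.08 (adjusted p = 0.0115) and Ppara, of fatty acid oxidation, at 3.47 (adjusted p = 0.0121), and in DSS+UA against DSS 1 rose, Esrra (0.77, adjusted p = 0.0374), and 1 fell, Mef2a (-0.85, adjusted p = 0.026), beside 7.54% of all genes in either direction. By DESeq2, with the replicate block or without DSS+UA 2, 3 genes of the list fell in UA+DSS against DSS, and 1 without Con 1, DSS 3, DSS+UA 1 or UA+DSS 1. The median of the list was -0.28, 0.25 and 0.05. No gene of the list rose with DSS without Con 1, Con 3, DSS 1, DSS 2, DSS+UA 3 or any single UA+DSS library, and 2 and 3 did without DSS+UA 1 and DSS+UA 2. None rose with no filter either. The 5 fallers were 3 without Con 2 or DSS 1, the 6 risers were 1 without UA+DSS 2, and both calls of DSS+UA against DSS were lost without DSS 2, DSS+UA 2 or DSS+UA 3, that of Esrra also without DSS 1 or any single UA+DSS library and with the replicate block. With the position covariate, no gene of any of the 6 lists was called in UA+DSS against DSS, whereas in DSS against Con 12 of 25 of the FoxO list, 6 of 23 of the PGC-1 list, 5 of 23 substrates, 3 of 16 upstream regulators, 2 of 13 related kinases and 0 of 6 subunit genes were called, beside 30.5% of all genes.

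**Figure D5:**
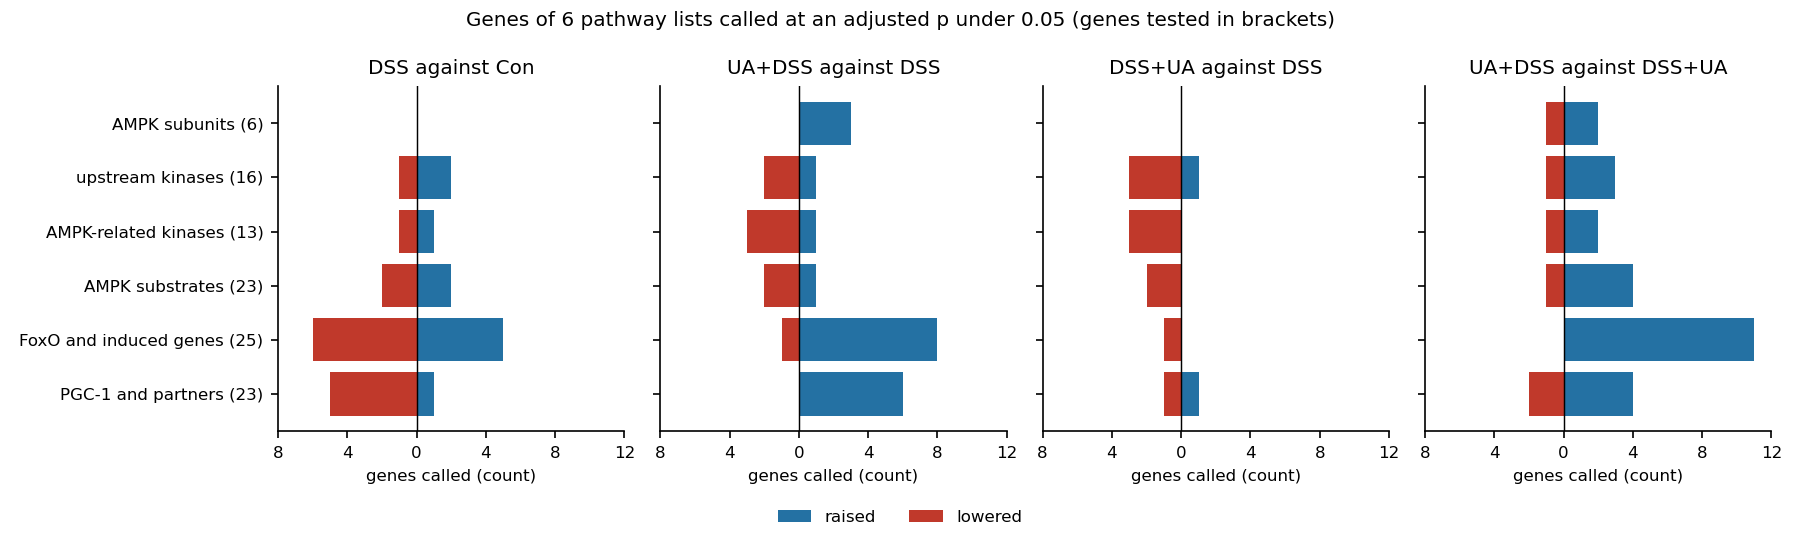
Number of genes raised and lowered in each of the 6 pathway lists in 4 comparisons (edgeR, adjusted p under 0.05). The FoxO list has 5 raised and 6 lowered in DSS against Con, 8 and 1 in UA+DSS against DSS and 11 and 0 in UA+DSS against DSS+UA.

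Across the 12 libraries, which share groups and position, Prkaa1 and Foxo3 went together (Pearson r of log2 CPM 0.90), as did Prkaa1 and Prkag2 (0.87), whereas Prkag1 and Prkag2 went in opposite directions (-0.80), as did Ppargc1a and Camkk2 (-0.68). Among 13724 genes, those whose levels were most like Prkaa1 were Wipf2 (r = 0.960), Cyp2c65 (0.957) and Gm2115 (0.947). Nearest to Foxo3 were Pnpla8 (0.977), Rap1gap2 (0.976) and Gucd1 (0.972), and nearest to Ppargc1a were Hpgd (0.960), Prkcz (0.954) and Btbd2 (0.951).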

How the data were processed

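Total RNA of colonic tissue was sequenced with an Illumina TruSeq kit, and per the labels RNA was isolated with Trizol, whereas the methods name an RNeasy kit. The authors mapped reads to GRCm38 with HISAT2, and the submitters' processing notes also name FastQC and Cuffdiff. The deposited files hold whole-number counts per Ensembl gene for each library, not normalized. The methods credit the counting to HISAT2 too; its version and the strand setting are not given. Of the 54532 genes listed, 54495 had a name in the annotation; the 37 without one held 0.0036% of counts. Groups came from the sample labels.

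Counts were fitted in edgeR 4.0.16 (R 4.3.3) with TMM scaling (factors 0.871 to 1.09), filterByExpr and 1 robust quasi-likelihood model of the 12 libraries with a coefficient for each group, and p-values were adjusted over 17658 genes by the Benjamini-Hochberg method with a threshold of 0.05. A second model added the position score. The biological coefficient of variation was 0.352. Log2 CPM had a prior count of 2, and levels between genes were compared per kilobase of exon. No libraries of a group agreed within sampling noise (chi-square per degree of freedom of at least 20.9). Alternatives were DESeq2 1.42.0, its size factors in edgeR, library size only, no filter, the position covariate, the replicate number as a block and each library left out in turn. Tables and figures were made with Python 3.11.15, pandas 2.3.3, numpy 2.4.6 and matplotlib 3.10.9. All 10 genes were named in every comparison, with their paralogs, up to 4 genes of smallest p per pathway list and comparison, and for Prkaa1, Foxo3 and Ppargc1a the 3 genes of largest correlation among those with mean log2 CPM of at least 1. The 10 genes and the lists were chosen, and the position score was defined, with earlier results of these data known.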

Additional observations from a re-analysis of the deposited data

Results flagged for a closer look

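The difference from the same DSS libraries was unlike between UA begun before and UA begun during the DSS course for 5 of the 10 genes. This was read from the direct comparison of UA+DSS with DSS+UA (edgeR, adjusted p under 0.05), beside 7.54% of all genes higher and 9.23% lower. With each library left out in turn, 1 to 7 of the 10 were called. The difference was 1.06 on the log2 scale for Prkaa1 and -0.39 with the position score as a covariate. It was -0.87 for Prkag1 and -0.33 with the covariate, 1.06 for Prkag2 and 0.59 with it, 1.03 for Foxo3 and -0.01 with it, and 1.27 for Ppargc1a and 1.06 with it. None of the 5 was called with the covariate, and the position scores of these groups did not overlap, so that position and the time of UA cannot be told apart.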

How the results depend on the processing

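Single gene values under the alternatives kept their direction and their side of the threshold in 1108 cases, lost a call in 80, gained one in 23 and changed direction in 39. The cause of these changes was not tested. With the position score as a covariate, 3 of all genes and 0 of the 10 were called in UA+DSS against DSS, 199 and 0 in DSS+UA against DSS, 0 of all genes in UA+DSS against Con, and 0 and 0 in UA+DSS against DSS+UA. DESeq2 called 3034 of all genes in DSS+UA against DSS, where edgeR called 1331, 368 in UA+DSS against Con, where edgeR called 1, and 1266 on the position score, where edgeR called 224. It called 1 of the 10 in DSS+UA against Con and 2 on the position score. With no filter on low counts, 882 genes were called in DSS+UA against DSS and 0 in UA+DSS against Con. Without that filter edgeR no longer called Prkaa2 in UA+DSS against DSS (adjusted p = 0.0781) or Ppargc1a in UA+DSS against DSS+UA (adjusted p = 0.0674). With library size only, 1 of the 10 (Foxo3) was called in DSS+UA against Con, and Prkab1 was also called in UA+DSS against DSS+UA (edgeR, adjusted p = 0.0342). That scaling moved the median of all genes from 0.02 to -0.11 in DSS+UA against DSS, and from -0.02 to -0.12 in UA+DSS against DSS. Its calls went from 448 raised and 883 lowered to 140 and 1003 in DSS+UA against DSS, from 1613 and 1580 to 1035 and 1557 in DSS+UA against Con, and from 92 and 132 to 115 and 98 on the position score.

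Same-numbered libraries did not deviate together (18 correlations of -0.216 to 0.187, of which 5 were over 0.1), so the replicate numbers were not taken to pair them. With the replicate block, 552 genes and 0 of the 10 were called in DSS+UA against DSS, 1 of the 10 in DSS+UA against Con, and 11 genes and 0 of the 10 on the position score; the slope of Prkaa1 was -0.111 (adjusted p = 0.15) and that of Ppargc1a 0.051. The block also called Foxo3 in DSS against Con and Prkaa1 in UA+DSS against DSS, and not Ppargc1a in UA+DSS against DSS+UA (adjusted p = 0.063).

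With 1 library left out, all genes called and those of the 10 ran from 2894 to 4708 and 1 to 3 in DSS against Con, from 183 to 4112 and 1 to 7 in UA+DSS against DSS, from 25 to 1825 and 0 to 1 in DSS+UA against DSS, from 0 to 4 and 0 to 0 in UA+DSS against Con, from 1062 to 4057 and 0 to 2 in DSS+UA against Con, from 560 to 3893 and 1 to 7 in UA+DSS against DSS+UA, and from 1 to 770 and 0 to 2 on the position score.

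The changes of direction fell on values that were not called, apart from Prkaa1 and Foxo3 in UA+DSS against DSS+UA. With the covariate, Prkaa1 went to 0.06 in DSS against Con, -0.23 in UA+DSS against DSS, -0.17 in UA+DSS against Con, 0.16 in DSS+UA against DSS, 0.22 in DSS+UA against Con and -0.39 in UA+DSS against DSS+UA. Prkaa2 went to -0.36 in UA+DSS against Con and -0.33 in UA+DSS against DSS+UA, and Foxo3 to 0.15 in DSS+UA against DSS, -0.23 in UA+DSS against Con and -0.01 in UA+DSS against DSS+UA. Stk11 went to 0.08, -0.04 and 0.12 in UA+DSS against DSS, DSS+UA against DSS and UA+DSS against DSS+UA, Camkk2 to 0.22 in DSS+UA against Con and -0.69 in UA+DSS against DSS+UA, Prkag1 to -0.05 in DSS+UA against Con and Prkab2 to 0.01 in UA+DSS against DSS. Prkab2 in DSS against Con was at 0.05 with library size only, 0.01 by DESeq2 and 0.03 with the replicate block, and Stk11 in DSS+UA against DSS at -0.07 with library size only. With 1 library left out, values ran from -0.53 to 0.12 for Prkaa1 and -0.26 to 0.14 for Prkab2 in DSS against Con, -0.27 to 0.06 for Stk11 in UA+DSS against DSS, -0.14 to 0.84 for Prkaa2 and -0.04 to 0.29 for Stk11 in DSS+UA against DSS, -0.32 to 0.31 for Camkk2 and -0.22 to 0.71 for Ppargc1a in UA+DSS against Con, and -0.22 to 0.01 for Stk11 and -0.46 to 0.19 for Camkk2 in DSS+UA against Con. On the position score they ran from -0.006 to 0.115 for Prkab2, -0.036 to 0.051 for Stk11, -0.132 to 0.132 for Camkk2 and -0.040 to 0.003 for Ppargc1a. Each group held 3 libraries, with 94 to 3496 counts per gene and library. The share of counting error in the spread between libraries was not tested for these genes.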
